A study of Mus musculus with 12 samples.

Results

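The genes described here encode the RB pocket proteins (Rb1, Rbl1 and Rbl2), the kinase CDK2 (Cdk2) and the E2F transcription factors numbered 3 to 8 (E2f3 to E2f8). They were chosen by name as 10 rows of the deposited count table, and all 10 were found among its 47480 gene symbols. RNA sequencing covered 12 mouse samples of trigeminal nerve, a cranial nerve that carries sensation from the face. Of these, 6 were labelled normal nerve, with the genotype Nf1 flox/flox PostnCre-, and 6 were labelled plexiform neurofibroma, with the genotype Nf1 flox/flox PostnCre+. Both groups thus carried floxed Nf1, the gene of neurofibromin, a RAS inhibitor, and only the tumour group carried the Cre recombinase named for Postn, so that genotype and tumour state coincide. No agent is named for any sample, and no age, sex or litter is given. Nothing in the labels says that the samples came from separate animals, so p-values measure the spread between these samples, which may be technical. Replicate numbers below only name the libraries of a group and pair none across groups. The samples are whole tissue, in which cells without the Cre are counted together with those that have it, and in which fewer cells of a type and less RNA per cell cannot be told apart.

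Pocket proteins bind E2F factors and hold the genes of DNA replication and mitosis silent. RB, the product of Rb1, mainly restrains the activating E2Fs, among them E2F3, while p107 (Rbl1) and p130 (Rbl2) act mainly with the repressive E2F4 and E2F5, p130 in the DREAM complex of resting cells. Cyclin D with CDK4 or CDK6, and then CDK2 with cyclin E or A, phosphorylate the pocket proteins and release the E2Fs. E2F6 represses without binding a pocket protein, as part of a Polycomb complex, and E2F7 and E2F8 are atypical repressors whose own genes are E2F targets. The series title names inhibition of CDK4/6 together with ERK1/2, so the pocket proteins stand directly downstream of 1 of its drug targets. Phosphorylation, which sets the activity of RB, is not measured by RNA sequencing.

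Total counts ran from 14160025 to 19989351 per library. Markers of Schwann cells and of sensory neurons were abundant in every library, with summed levels of 4105 CPM (counts scaled to library size, with TMM factors) or more and 11040 CPM or more. Of 7 Schwann cell markers, 4 were higher in the tumours and 0 lower by the test below. Nf1 itself ran from 85.5 to 173 CPM in normal nerve and from 69.5 to 93.1 CPM in the tumours (log2 fold change -0.65, SE 0.16, edgeR adjusted p = 0.0179). That count is over the whole gene and does not separate the floxed part. Some libraries stood apart. Normal nerve replicate 6 had the lowest mean Spearman correlation with the rest of its group, 0.949, the highest summed level of central nervous system glia markers, 2520 CPM against at most 643 CPM in the other normal libraries, and the lowest sensory neuron level. Schwann cell and fibroblast markers were lowest in normal nerve replicate 2, at 4105 and 182 CPM, and skeletal muscle markers were highest in neurofibroma replicate 1, at 1646 CPM.

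Of the 10 genes, 8 had enough counts to be tested with all genes. E2f5 was the 1 gene called higher in plexiform neurofibroma, and 0 were called lower (edgeR quasi-likelihood test, adjusted p under 0.05). At an unadjusted p under 0.05 there were 2, E2f5 and Rbl2. A gene that was not called is not thereby shown to be unchanged. In simulated data the same test recovered 0% of genes changed 1.25-fold and 34% of those changed 1.5-fold. Over all 17236 genes tested, 10.0% were called higher, 8.63% lower and 18.7% in either direction, so that 1 of 8, or 12.5%, lies near the background. Of the 8 log2 fold changes, 4 lay above 0 and 4 below, with a median of -0.016, against 47.5% above 0 and a median of -0.0208 for all genes. For none of the 10 genes were the groups free of overlap, while 7.39% of all tested genes had groups that did not overlap. Limma-voom called E2f5 higher and 2 of the 8 lower, E2f3 and E2f6, where it called 16.6% of all genes higher and 15.7% lower. DESeq2 called E2f5 higher and 0 lower, against 12.9% and 11.8% of all genes. The plot of log2 fold changes sets these differences beside those of the D-type cyclins, Cdk4 and Cdk6.

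**Figure D1:**
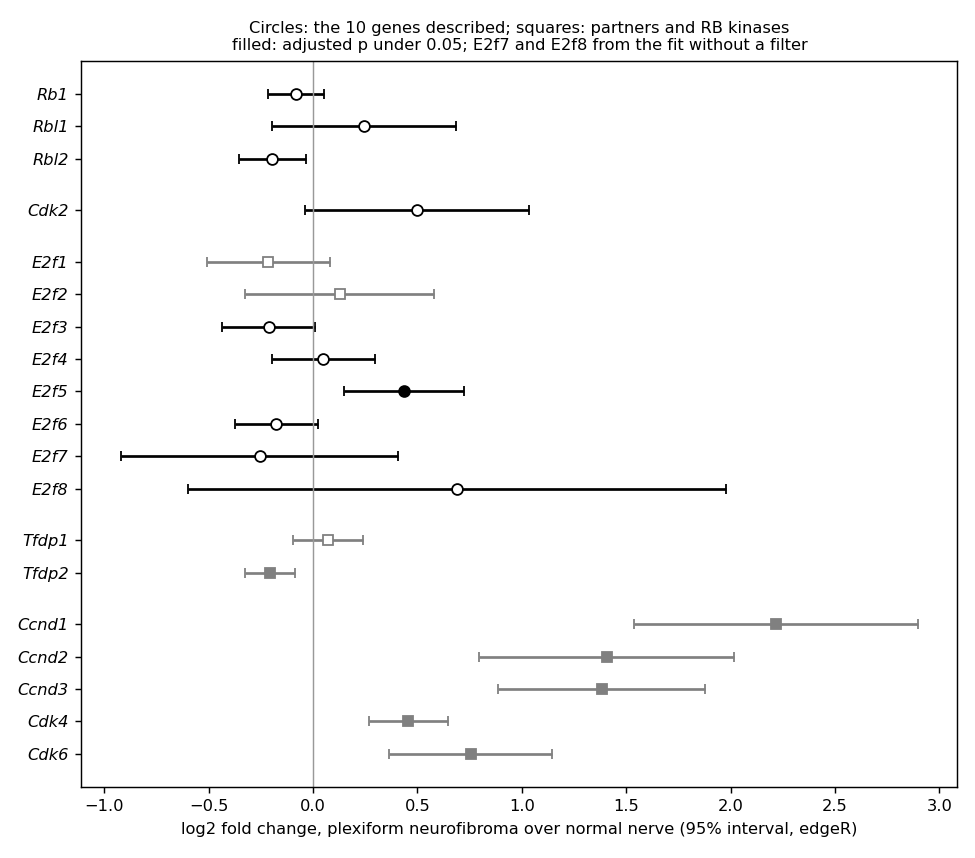
Log2 fold change of plexiform neurofibroma over normal nerve with its 95% interval from edgeR (x axis) for each gene (y axis). Circles are the 10 genes described, and squares are their partners, the D-type cyclins, Cdk4 and Cdk6. Filled symbols had an adjusted p under 0.05. Among the circles only E2f5, at 0.44, is filled, and Cdk2 is not. All 5 genes of the D-type cyclins, Cdk4 and Cdk6 are filled and lie above 0.

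Some E2F and pocket protein genes are themselves known E2F targets, so their promoters are shown where they carry an E2F-type octamer. RefSeq promoter sequences (GRCm38.p6) were matched for 7 of the 10 genes, at 8 start sites; Rb1, E2f4 and E2f5 were not matched. In the 250 bases before each start, 4 E2F octamers were searched on both strands: TTTCCCGC, TTTGGCGC, TTTCGCGC and TTTGCCGC. An octamer was found at 1 start site each of Rbl1, Cdk2, E2f3 and E2f7, and in 1.86% of all 32851 promoter windows of that length. The start sites of Rbl2, E2f6 and E2f8 and the second start site of E2f3 held none of these letters. The 4 windows with a match are printed 5′ to 3′ along the gene, with the octamer, or its reverse complement, in capitals.
Rbl1 (chr2:157204535-157204784, minus strand): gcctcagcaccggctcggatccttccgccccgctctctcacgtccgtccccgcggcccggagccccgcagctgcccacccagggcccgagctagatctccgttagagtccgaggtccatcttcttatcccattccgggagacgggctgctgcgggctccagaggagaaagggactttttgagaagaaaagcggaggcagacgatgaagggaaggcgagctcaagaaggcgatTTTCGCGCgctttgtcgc
Cdk2 (chr10:128705052-128705301, minus strand): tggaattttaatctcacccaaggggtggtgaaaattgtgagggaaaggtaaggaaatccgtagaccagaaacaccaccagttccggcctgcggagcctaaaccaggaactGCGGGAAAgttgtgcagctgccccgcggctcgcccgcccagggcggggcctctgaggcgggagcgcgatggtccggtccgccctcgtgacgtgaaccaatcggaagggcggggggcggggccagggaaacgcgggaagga
E2f3 (chr13:29986064-29986313, minus strand): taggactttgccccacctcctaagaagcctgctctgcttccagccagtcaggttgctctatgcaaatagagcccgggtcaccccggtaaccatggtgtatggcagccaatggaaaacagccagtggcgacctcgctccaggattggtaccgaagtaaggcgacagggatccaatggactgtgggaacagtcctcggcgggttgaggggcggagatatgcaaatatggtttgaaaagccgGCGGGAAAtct
E2f7 (chr10:110745189-110745438, plus strand): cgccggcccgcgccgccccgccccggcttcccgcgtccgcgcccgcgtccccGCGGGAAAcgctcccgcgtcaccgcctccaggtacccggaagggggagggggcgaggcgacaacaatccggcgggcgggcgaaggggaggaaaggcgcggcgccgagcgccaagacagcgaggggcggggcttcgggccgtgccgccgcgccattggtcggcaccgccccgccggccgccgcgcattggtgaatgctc
The capitals begin 18 bases before the start of Rbl1 and 11 bases before that of E2f3, so these 2 matches lie at the start site. Those of Cdk2 and E2f7 begin 140 and 198 bases before it. The hexamer TTTGAA of the cell cycle homology region, through which DREAM acts on mitosis genes, was searched in the same way. It was found in Rbl2 (201 bases before the start), E2f3 (23 bases) and E2f8 (20 bases), and in 16.0% of all windows. A match is a run of letters and was not tested for binding.

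Rb1 (chromosome 14, 73183673 to 73325822, GRCm38), the founding tumour suppressor of the family, varied little among the normal libraries. Its level in normal nerve ran from 44.8 to 48.8 CPM with a median of 45.8 CPM, a mean of 46.3 ± 1.4 CPM (SD, n = 6). In plexiform neurofibroma it ran from 38.5 to 48.1 CPM with a median of 43.5 CPM, a mean of 43.7 ± 3.63 CPM (SD, n = 6). Of the 6 tumour libraries, 3 lay below every normal library and none above the highest. The fold was 0.945 with a 95% interval from 0.86 to 1.04 (edgeR adjusted p = 0.37). Only 20.4% of all tested genes had a log2 fold change as small as that of Rb1 or smaller in size. Rcbtb2 and Lpar6 overlap the annotated range of Rb1 on the other strand, at 32.7 and 5.05 CPM in the normal and 35.7 and 7.15 CPM in the tumour libraries. The labels name both a stranded kit, KAPA Stranded mRNAseq, and Illumina TruSeq RNA v2, so the kit is uncertain, and whether the authors counted by strand is not given in the sources used here. Reads of overlapping genes on opposite strands may therefore not be told apart here, and likewise for Rbl2, Cdk2 and E2f5.

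Rbl2 (chromosome 8, 91070057 to 91123844), which encodes p130, the pocket protein of resting cells, ran from 44.5 to 51.4 CPM in normal nerve (median 48.5) and from 36.5 to 46.3 CPM in the tumours (median 42.6). Replicates 2, 3 and 5 of the tumours, at 36.5, 39.3 and 39.8 CPM, lay below all normal libraries, and the other 3 lay among them. The fold was 0.874 with an interval from 0.783 to 0.975 (unadjusted p = 0.0201), and it missed the threshold over all genes (edgeR adjusted p = 0.0796). The adjusted p stayed between 0.0537 and 0.196 over 12 alternative settings and between 0.0775 and 0.155 with any 1 library left out. Aktip, at 166 CPM in the normal and 154 CPM in the tumour libraries, overlaps Rbl2 on the other strand.

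Rbl1 (chromosome 2, 157145893 to 157204534), which encodes p107, the pocket protein of dividing cells and itself an E2F target, was far lower than its relatives. It ran from 1.98 CPM in replicate 2 to 4.51 CPM in replicate 6 of normal nerve (median 3.1), and from 2.56 to 4.79 CPM in the tumours (median 3.58). The ranges overlapped over most of their length. The fold was 1.18 with an interval from 0.872 to 1.6 (edgeR adjusted p = 0.418). With group means subtracted, Rbl1 had r = 0.768 with the mean log2 level of 6 fibroblast markers over 12 samples, and 0.407 without the 2 farthest libraries. With that of 12 sensory neuron markers r was -0.796, and -0.57 without the 2 farthest. With the sensory neuron score as a covariate the log2 fold change of Rbl1 was 0.06 (edgeR adjusted p = 0.854), against 0.24 without it. The part of these cell types in the level of Rbl1 was not tested.

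The 3 pocket proteins are compared per length, as CPM per kb of the longest annotated transcript. Rb1 stood at 9.94 ± 0.301 CPM per kb in normal nerve and 9.39 ± 0.779 in the tumours (SD, n = 6 each). Rbl2 stood at 9.81 ± 0.585 and 8.57 ± 0.847 CPM per kb, and Rbl1 at 0.636 ± 0.174 and 0.752 ± 0.154. In normal nerve Rb1 was above Rbl2 in 3 of 6 libraries, so by this length their levels did not differ beyond the spread. In the tumours Rb1 was above Rbl2 in 6 of 6, with ranges that overlapped. Of the summed pocket protein level, Rbl2 made 48.1 ± 1.41% in normal nerve and 45.8 ± 1.53% in the tumours, Rb1 made 48.8 ± 1.64% and 50.2 ± 1.39%, and Rbl1 made 3.11 ± 0.804% and 4.01 ± 0.67% (SD, n = 6 each). All 3 pairs of ranges overlapped, and these shares were not tested. The levels and shares depend on the length used. With the median transcript, Rb1 stood at 109.9, Rbl2 at 50.4 and Rbl1 at 1.32 CPM per kb over all 12 libraries.

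**Figure D2:**
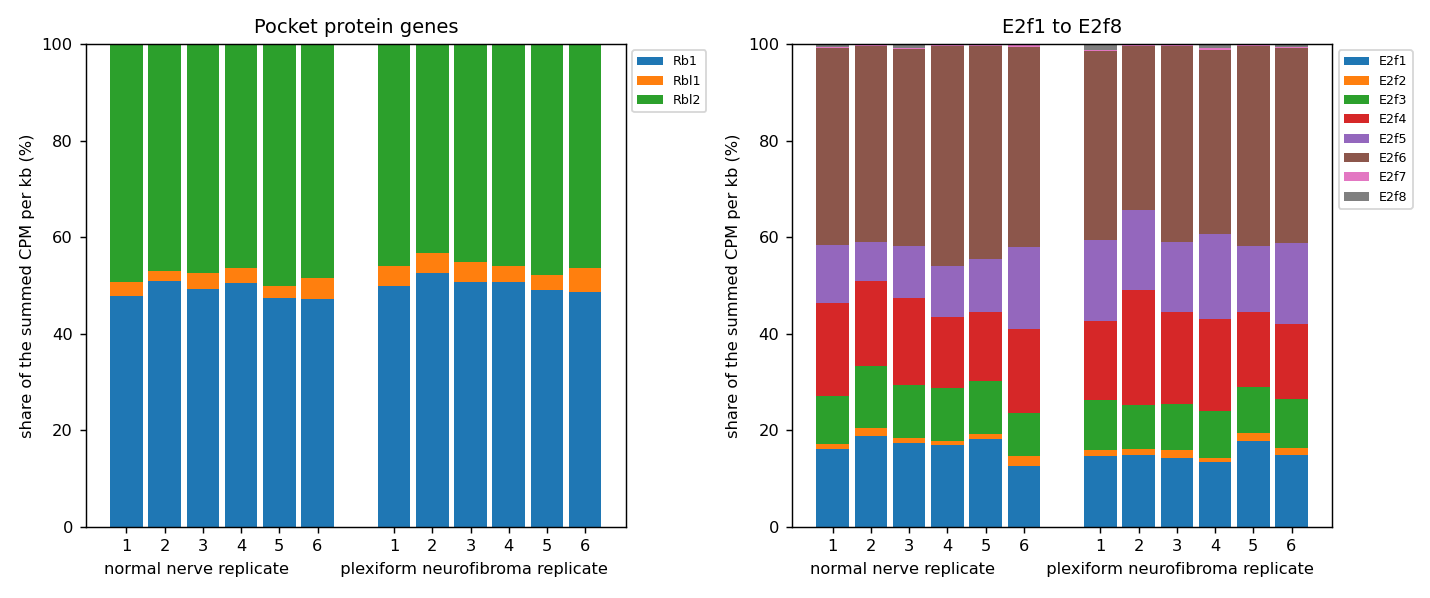
Share of each gene (y axis, percent) in the summed CPM per kb of the pocket protein genes (left) and of E2f1 to E2f8 (right), with 1 bar per library (x axis). Rb1 and Rbl2 fill nearly the whole of each bar on the left, and E2f6 is the widest band of every bar on the right, from 33.9% to 45.5%.

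Cdk2 (chromosome 10, 128697939 to 128705031), the kinase that completes RB phosphorylation, varied more among the normal libraries than among the tumours. It ran from 1.88 to 5.83 CPM in normal nerve (median 3.84) and from 4.31 to 6.82 CPM in the tumours (median 5.08). Normal nerve replicates 4 and 5 were the lowest, at 1.88 and 2.42 CPM, and 2 tumour libraries exceeded every normal one. The fold was 1.41 with an interval from 0.974 to 2.05 (edgeR adjusted p = 0.17). Without normal nerve replicate 1 the adjusted p was 0.0714, the lowest with any 1 library left out. Over 12 alternative settings the adjusted p ran from 0.0519 to 0.401 and the log2 fold change from 0.32 to 0.65. With the sensory neuron score as a covariate the log2 fold change of Cdk2 was 0.32 (edgeR adjusted p = 0.401), against 0.50 without it. The part of sensory neurons in the level of Cdk2 was not tested. Pmel, at 0.84 CPM in the normal and 1.51 CPM in the tumour libraries (edgeR adjusted p = 0.0278), overlaps Cdk2 on the other strand.

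Among the partners and activators of CDK2, none of 7 tested genes was called. Their log2 fold changes had a median of -0.09, and 1 of the 7, Ccna2, lay above 0. Ccne1 and Ccne2, the E-type cyclins, averaged 9.91 and 9.14 CPM in the normal and 8.78 and 8.78 CPM in the tumour libraries. Cdc25a, the phosphatase that activates CDK2, had the smallest p of the list (log2 fold change -0.14, SE 0.08, edgeR adjusted p = 0.221). The cyclin A gene of the germ line, Ccna1, fell below the filter on low counts.

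**Figure D3:**
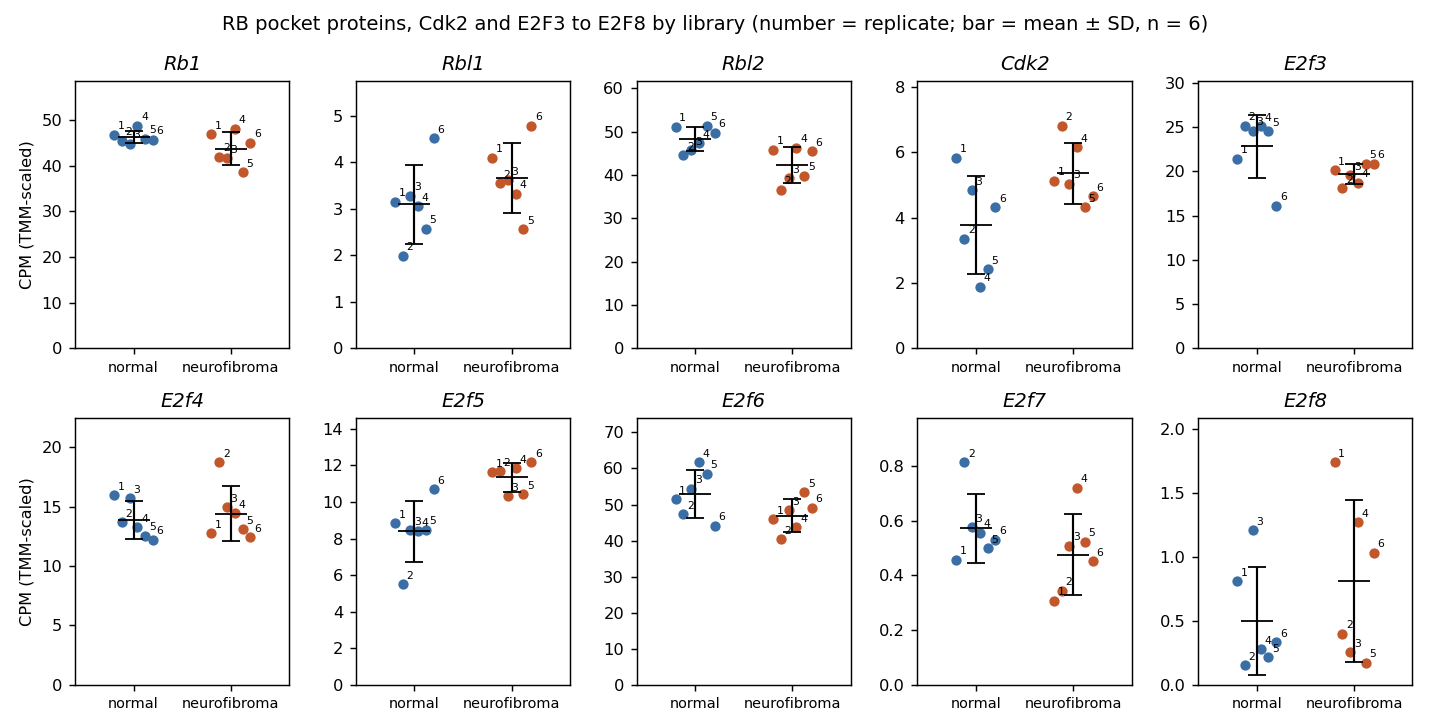
CPM (y axis, linear from 0, scaled for each gene) of the 10 genes in 6 normal nerve and 6 plexiform neurofibroma libraries (x axis). Points are libraries numbered by replicate, and bars are the mean and SD. Groups overlap for each gene, and normal nerve replicate 6 lies away from the other normal libraries for E2f3 (lowest), E2f5 and Rbl1 (highest).

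E2f5 (chromosome 3, 14578641 to 14606309), a repressive E2F that works with p130, was the gene with a called change. It ran from 5.49 to 10.7 CPM in normal nerve (median 8.47) and from 10.3 to 12.2 CPM in the tumours (median 11.7). Of the 6 tumour libraries, 4 lay above every normal one, and the overlap came from normal nerve replicate 6, at 10.7 CPM, against at most 8.83 CPM in the other 5. The mean rose from 8.39 ± 1.67 to 11.4 ± 0.778 CPM (SD, n = 6 each), 1.35-fold with an interval from 1.11 to 1.65 (log2 fold change 0.44, SE 0.13, edgeR adjusted p = 0.0373). A log2 fold change of at least this size was found in 25.6% of all tested genes. The call did not survive omission of normal nerve replicate 3, 4 or 5 or of neurofibroma replicate 1, 2, 4 or 6 (adjusted p between 0.0523 and 0.078), while the log2 fold change with any 1 library left out ran from 0.35 to 0.52. The call was also lost without a filter on low counts (0.054, in a fit that called 7.04% of all genes), with the sensory neuron score as a covariate (0.0703, where 7.75% of all genes were called higher) and after removal of a trend with transcript length (0.0869), and it held without the 3 libraries that stood apart (log2 fold change 0.40, adjusted p = 0.0139, with 12.6% of all genes called higher).

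E2f5 moved with fibroblast markers among the libraries. After the group means were subtracted, Pearson's r between E2f5 and the mean log2 level of 6 fibroblast markers was 0.917 over 12 samples (Spearman's rho 0.741), 0.673 without the 2 libraries farthest from the median of that score, and 0.95 without normal nerve replicate 6. Of the 6 fibroblast markers, 5 were called higher in the tumours and 0 lower. Their summed level ran from 182 to 1250 CPM in normal nerve and from 1464 to 3434 CPM in the tumours, and none was at 0 in all libraries. Normal nerve replicate 2 was lowest both for E2f5 and for these markers, and also for Schwann cell and macrophage markers, at 4105 and 37 CPM. With Schwann cell markers r was 0.566, 0.248 without the 2 farthest libraries and 0.771 without normal nerve replicate 6. With sensory neuron markers r was -0.775, and with macrophage markers it was 0.841 (-0.603 and 0.582 without the 2 farthest libraries). Of the 6 macrophage markers, 2 were called higher and 0 lower, with summed levels of 37 to 159 CPM in normal nerve and 104 to 226 CPM in the tumours. The part of these cell types in the rise of E2f5 was not tested. The gene 1810022K09Rik, which overlaps E2f5 on the other strand, averaged 26.4 CPM in the normal and 31.5 CPM in the tumour libraries (edgeR adjusted p = 0.0266).

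E2f4 (chromosome 8, 105297663 to 105305370), the other repressive E2F of resting cells, ran from 12.2 to 16 CPM in normal nerve (median 13.5) and from 12.4 to 18.7 CPM in the tumours (median 13.8). The highest value, 18.7 CPM, was that of neurofibroma replicate 2, and the other tumour libraries lay within the normal range. The log2 fold change was 0.05 with an interval from -0.20 to 0.30 (edgeR adjusted p = 0.784), and it was -0.04 without that library.

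E2f3 (chromosome 13, 29906575 to 29986063), the activating E2F of the set, ran from 16.1 to 25.2 CPM in normal nerve (median 24.5) and from 18.1 to 20.8 CPM in the tumours (median 19.8). Normal nerve replicate 6 was the lowest of all 12 libraries, and the other 5 normal libraries, at 21.4 to 25.2 CPM, all lay above every tumour library. With all libraries the fold was 0.863 with an interval from 0.739 to 1.01, and it was not called (edgeR adjusted p = 0.16). Without normal nerve replicate 6 the log2 fold change was -0.29 and E2f3 was called lower (adjusted p = 0.00836), in a fit that called 14.2% of all genes lower. Groups in which every tumour library lay below the other 5 normal libraries were found for 7.53% of all tested genes. Without the 3 libraries that stood apart it was -0.28 (adjusted p = 0.0312, with 11.7% of all genes called lower). The count sums the isoforms that start at the 2 promoters of the gene.

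E2f3 moved with sensory neuron markers among the libraries. After the group means were subtracted, r between E2f3 and the mean log2 level of 12 sensory neuron markers was 0.898 over 12 samples (Spearman's rho 0.811), 0.603 without the 2 farthest libraries and 0.677 without normal nerve replicate 6. Of the 12 markers, 0 were called higher and 1 lower in the tumours. Their summed level ran from 11040 CPM in normal nerve replicate 6 to 19950 CPM in normal nerve replicate 2, and from 12370 to 16010 CPM in the tumours, and none was at 0 in all libraries. With the sensory neuron score as a covariate the log2 fold change of E2f3 was -0.07 (edgeR adjusted p = 0.569). The part of sensory neurons in the level of E2f3 was not tested.

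**Figure D4:**
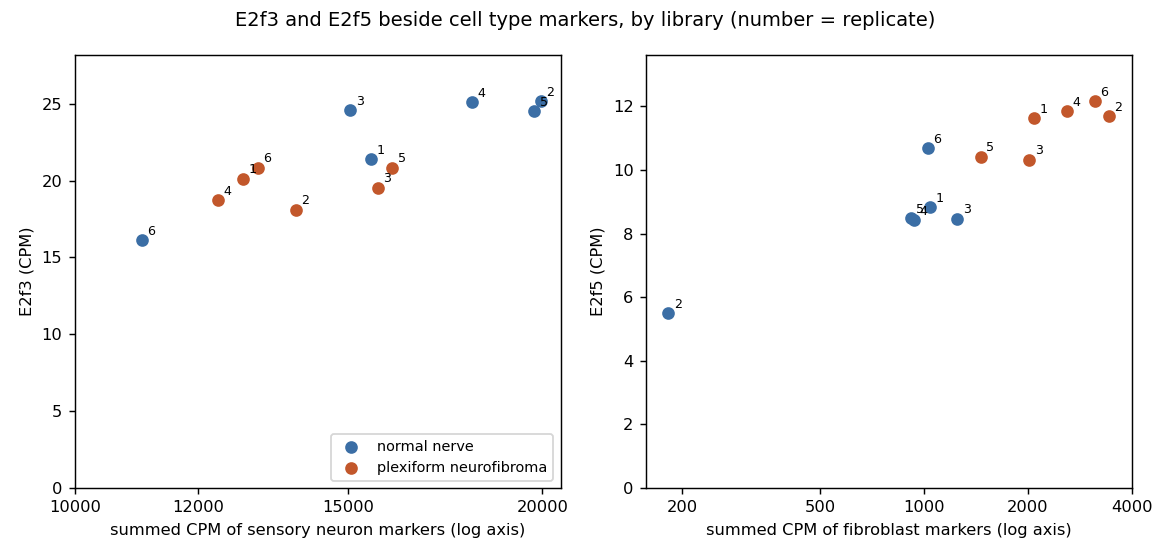
CPM of E2f3 against the summed CPM of 12 sensory neuron markers (left) and CPM of E2f5 against the summed CPM of 6 fibroblast markers (right), with log x axes and 1 point per library. Normal nerve replicate 6 is lowest on both axes of the left panel, at 16.1 CPM of E2f3, and normal nerve replicate 2 is lowest on both axes of the right panel, at 5.49 CPM of E2f5.

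The other activating E2Fs were described beside E2f3. E2f1 ran from 12.3 to 22 CPM in normal nerve (median 20.5) and from 14 to 20.9 CPM in the tumours (median 16), and normal nerve replicate 6 was again the lowest library. It was not called with all libraries (log2 fold change -0.21, SE 0.14, edgeR adjusted p = 0.283). Without that library it was called lower (log2 fold change -0.31, adjusted p = 0.0301), and with the sensory neuron score as a covariate its log2 fold change was -0.02 (adjusted p = 0.922). E2f1 had r = 0.874 with that score after the group means were subtracted, 0.734 without the 2 farthest libraries and 0.657 without normal nerve replicate 6. As for E2f3, the part of sensory neurons was not tested. Between E2f3 and E2f1, r was 0.886 over 12 samples (Spearman's rho 0.748) and 0.675 without normal nerve replicate 6. E2f2 averaged 2.35 CPM in the normal and 2.57 CPM in the tumour libraries.

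**Figure D5:**
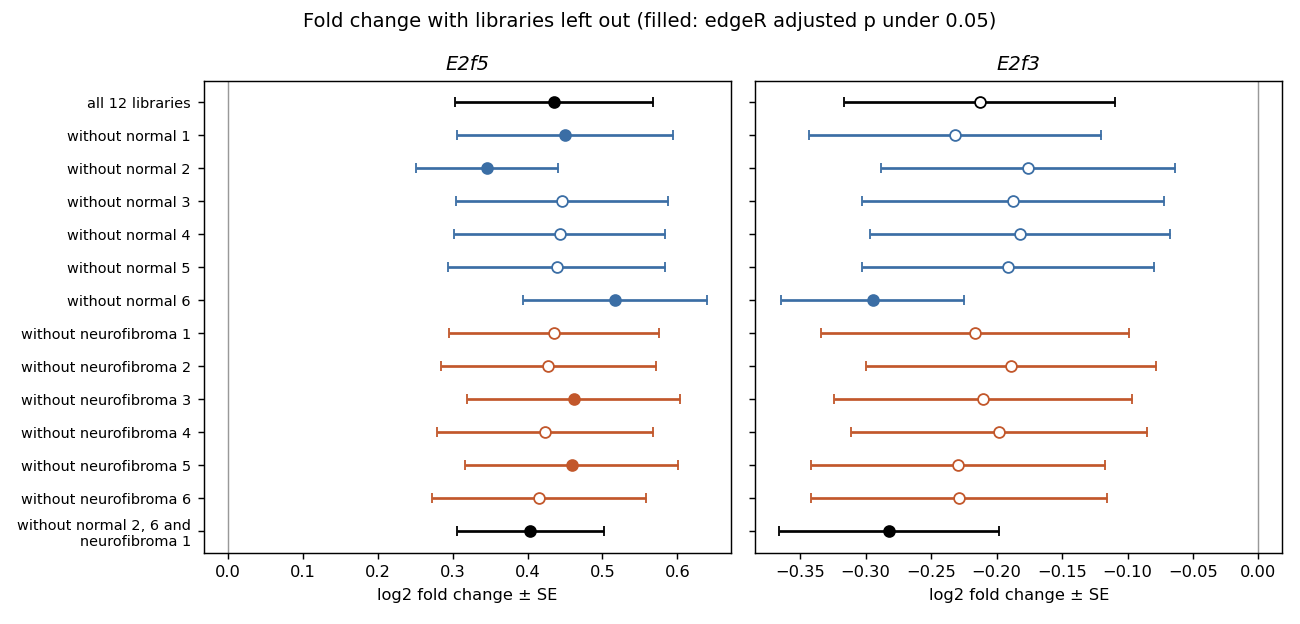
Log2 fold change with its SE (x axis) of E2f5 (left) and E2f3 (right) with all 12 libraries and with the named libraries left out (y axis); filled points had an edgeR adjusted p under 0.05. For E2f5 all values lie above 0 and 5 of 12 single omissions keep it called, and for E2f3 all lie below 0 and the omission of normal nerve replicate 6 is the 1 single omission that gives a call.

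E2f6 (chromosome 12, 16810963 to 16839742), the pocket-independent repressor, was the most abundant E2F per length. It ran from 44.1 to 61.7 CPM in normal nerve (median 52.9) and from 40.4 to 53.5 CPM in the tumours (median 47.2). Replicates 4 and 5 of normal nerve were highest, at 61.7 and 58.6 CPM, and 2 tumour libraries, replicates 2 and 4, lay below every normal one. The fold was 0.886 with an interval from 0.771 to 1.02 (edgeR adjusted p = 0.194), and limma-voom called it lower (log2 fold change -0.24, adjusted p = 0.0332). With the sensory neuron score as a covariate the log2 fold change of E2f6 was -0.09 (edgeR adjusted p = 0.488). After the group means were subtracted, E2f6 had r = 0.616 with that score, 0.818 without the 2 farthest libraries and 0.402 without normal nerve replicate 6. With endothelial markers r was -0.821, and with central nervous system glia markers -0.664 (-0.754 and -0.501 without normal nerve replicate 6). Without the 2 farthest libraries these 2 values were -0.821 and -0.31. The part of these cell types in the level of E2f6 was not tested.

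E2f7 (chromosome 10, 110745439 to 110787384) and E2f8 (chromosome 7, 48866429 to 48881596), the atypical repressors of dividing cells, fell below the filter and were tested without one. E2f7 had 6 to 16 counts in a library, or 0.457 to 0.814 CPM in normal nerve (median 0.544) and 0.307 to 0.72 CPM in the tumours (median 0.481). Normal nerve replicate 2 was highest, and the groups overlapped. Its log2 fold change was -0.26 with an interval from -0.92 to 0.41 (edgeR without a filter, adjusted p = 0.643). E2f8 had 3 to 34 counts in a library, or 0.153 to 1.21 CPM in normal nerve (median 0.305) and 0.175 to 1.74 CPM in the tumours (median 0.718). Normal nerve replicates 1 and 3 and neurofibroma replicates 1, 4 and 6 held 0.812 CPM or more, and the other 7 libraries 0.401 CPM or less, so that the wide spread lay within both groups. Its log2 fold change was 0.69 with an interval from -0.60 to 1.98 (edgeR without a filter, adjusted p = 0.491).

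Ordered by level per length in normal nerve, the genes ran from E2f6 at 17.5 ± 2.22 CPM per kb through Rb1, Rbl2, E2f4 at 6.98 ± 0.801, E2f5 at 4.72 ± 0.937, E2f3 at 4.48 ± 0.699, Cdk2 at 1.16 ± 0.46 and Rbl1 to E2f8 at 0.135 ± 0.114 and E2f7 at 0.104 ± 0.023 (SD, n = 6 each). E2f6 lay above Rb1 in every library of both groups with ranges that did not overlap. E2f5 was above E2f3 in 2 of 6 normal libraries, so this pair did not differ beyond the spread in normal nerve, and neither did E2f8 and E2f7. In the tumours E2f5, at 6.38 ± 0.438 CPM per kb, had a range of 5.8 to 6.84 that lay above that of E2f3, 3.55 to 4.09. Of the summed level of E2f1 to E2f8, E2f5 made 11.5 ± 3% in normal nerve and 16.1 ± 1.51% in the tumours, E2f6 made 42.3 ± 2.09% and 38.9 ± 2.71%, and E2f3 made 10.8 ± 1.25% and 9.7 ± 0.426% (SD, n = 6 each). These orders and shares rest on the longest transcript as the length: with the median transcript, Rb1 at 109.9 and Rbl2 at 50.4 CPM per kb over all 12 libraries lay above E2f6 at 21.1.

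The genes around the family were taken from lists whose counts are read against the 18.7% of all genes called. Of the dimer partners that most E2Fs need to bind DNA, Tfdp2 was called lower, with groups that did not overlap (log2 fold change -0.21, SE 0.06, edgeR adjusted p = 0.0226), and Tfdp1 was not called. The Tfdp2 call was lost without a filter (adjusted p = 0.0969), after removal of the length trend (0.188) and without normal nerve replicate 3 or 5 (0.059 and 0.053). Of 8 genes of DREAM and its core MuvB, 0 were called. Dyrk1a, the kinase that assembles DREAM, had the smallest p (log2 fold change -0.12, adjusted p = 0.106). DESeq2 called it lower (adjusted p = 0.0417).

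Of 11 partners of E2F6 in its Polycomb complex, 2 were higher and 1 lower. The ubiquitin ligase gene Rnf2 rose 1.26-fold, with 20.7 ± 1.6 CPM in the normal and 26.1 ± 2.37 CPM in the tumour group (SD, n = 6 each; edgeR adjusted p = 0.0128), with groups that did not overlap. Hdac1, a histone deacetylase that pocket proteins also recruit, rose 1.33-fold from 28.8 ± 3.47 to 38.2 ± 3.93 CPM (adjusted p = 0.0096). Ring1, the relative of Rnf2, fell to 0.801 of the normal level (adjusted p = 0.0263), and its call was lost without neurofibroma replicate 4 or 6 (0.0646 and 0.055), without a filter (0.0539) and without the 3 libraries that stood apart (0.0756). Of 7 germ cell genes that E2F6 is known to hold silent, 6 fell below the filter and Stag3, at 0.988 CPM in the normal and 0.688 CPM in the tumour libraries, was not called (adjusted p = 0.221). Of 16 corepressors that bind pocket proteins, Hdac1 was the 1 called higher and 0 were lower, and their median log2 fold change was 0.01.

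Of 30 E2F target genes of the G1/S transition, 2 were higher, Mcm7 at 1.37-fold and Uhrf1 at 2.27-fold (edgeR adjusted p = 0.0115 and 0.0247), and 0 were lower. Their median log2 fold change was 0.07, 19 of the 30 lay above 0, and 14 averaged under 5 CPM. Of 18 G2/M genes listed as targets of DREAM, 14 were tested, and Cenpf was called higher at 2.47-fold (edgeR adjusted p = 0.0283). The median log2 fold change of the 14 was 0.33. Of these 14, 11 lay above 0 in log2 fold change, against 47.5% of all tested genes, and 13 averaged under 5 CPM. The 11 include Kif11 and Tpx2, at 0.0013 and 0.0044. They also include Ube2c, at 2.07, which held 63.5 CPM in neurofibroma replicate 1 and 0.52 to 0.78 CPM in the other tumour libraries. The direction of these lists was not tested. The call of Uhrf1 did not survive omission of normal replicate 4 or 5 or neurofibroma replicate 2, 4 or 6, and that of Cenpf omission of normal replicate 1 or 5 or neurofibroma replicate 2, 4 or 6 (highest adjusted p = 0.0587 and 0.0724). With the sensory neuron score as a covariate Cenpf was not called (adjusted p = 0.0966). Of 8 genes that dephosphorylate RB or take part in protein turnover around it, 2 were lower. Fzr1, an activator of the anaphase-promoting complex, fell to 0.8 of the normal level (adjusted p = 0.0081), with groups that did not overlap. Usp7, a deubiquitinase, had a fold of 0.881 (adjusted p = 0.0406), and its call was lost in 10 of the 12 fits with 1 library left out (highest adjusted p = 0.0996).

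The D-type cyclins and their kinases CDK4 and CDK6, which act upstream of the pocket proteins, stand beside these values. All 5 genes of the D-type cyclins, Cdk4 and Cdk6 were called higher, with a median log2 fold change of 1.38, in each of the 12 fits with 1 library left out. Ccnd1 ran from 8.85 to 34.2 CPM in normal nerve and from 69.5 to 162 CPM in the tumours. Its lowest library in each group, normal nerve replicate 2 and neurofibroma replicate 5, was also the lowest for the summed fibroblast markers, of which 5 of 6 were called higher, as were 4 of 7 Schwann cell markers. The part of these cell types in the rise of the D-type cyclins, Cdk4 and Cdk6 was not tested. The lists were chosen with earlier results of these data known. The contrast of the D-type cyclins, Cdk4 and Cdk6 with the pocket proteins was not tested as a difference between lists.

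For each pocket protein the 3 genes of most like pattern were sought among genes averaging at least 5 CPM, by Pearson's r of log2 CPM over 12 samples after the group means were subtracted. For Rb1 they were Cryz, Zc3h14 and Gas2 (r = 0.865, 0.854 and 0.845, out of 11696 genes). For Rbl1 they were Mob1b, Aph1a and Pfas (r = 0.937, 0.928 and 0.918), and for Rbl2 they were Rnf5, Sema6d and Taf9b (r = 0.875, 0.853 and 0.847). Between the pocket proteins themselves, Rb1 and Rbl2 had r = 0.688. These values are descriptions of 12 libraries that differ in depth and cell mixture, and all genes of a library share both. The like genes were picked as the 3 highest of all genes searched.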

How the data were processed

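The 12 samples share 1 table, deposited as unnormalized estimated counts by gene symbol. The submitters' processing notes name build mm10 and the tools STAR 2.4.2a, Salmon 0.60, FastQC and DESeq2, without saying what each did. The labels name both a stranded kit and TruSeq RNA v2, so the kit is uncertain. Annotation and strand setting: not given in the sources used here. Of the deposited expected counts, 84.1% to 86.5% per library were whole within 0.001; all were rounded for the tests. Columns were matched to samples by title. Replicate numbers follow the order of the sample records, not the labels, and pair no samples. Kmt5b and Kmt5c were found under older symbols.

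Genes were filtered with filterByExpr, which left 17236. All 12 samples entered 1 robust quasi-likelihood fit in edgeR 4.0.16 (R 4.3.3) with TMM factors and no covariate, tested by its F test. Benjamini-Hochberg adjustment ran over all genes tested, with calls at an adjusted p under 0.05. The SE is the log2 fold change divided by the square root of F, and 95% intervals use the t distribution. The code was tested on simulated data of 6 against 6 libraries, with 50 genes changed at each fold. It recovered 0% of genes changed 1.25-fold, 34% at 1.5-fold, 78% at 2-fold and 100% at 4-fold. Far fewer genes were changed there than were called here, so these shares need not hold for these data. CPM use TMM-scaled library sizes, and log2 CPM a prior count of 2. Coordinates and transcript lengths are those of GENCODE M21 on GRCm38, the assembly of mm10.

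The text names all 10 genes, and from each of 11 lists up to 4 called genes in order of p, or, failing any call, the 1 of smallest p; other list members named were chosen after their values were seen. The genes and lists were chosen with earlier results of these data known. Alternatives were no filter, upper-quartile and RLE factors, CPM above 1 in at least 6 samples, unrounded counts, 3 marker scores as covariates, removal of a length trend (lowess, span 0.3), DESeq2 1.42.0, limma-voom 3.58.1 with sample weights and each library left out in turn. The fit without 3 libraries, and the omissions for E2f7 and E2f8 without a filter, were chosen after seeing the data.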

Additional observations from a re-analysis of the deposited data

Results flagged for a closer look

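In 5 of 54 groups of 6 libraries, the highest or lowest library lay apart from its neighbour by a gap above Dixon's 95% limit for the group's range, which chance gives in about 1 of 20 groups. E2f7 in normal nerve replicate 2 stood at 0.814 CPM, with the next library at 0.576 CPM. E2f1 in normal nerve replicate 6 stood at 12.3 CPM, with the next at 18.5 CPM, and E2f1 in neurofibroma replicate 5 stood at 20.9 CPM, with the next at 16.6 CPM. Hdac1 in normal nerve replicate 6 stood at 35.5 CPM, with the next at 29.5 CPM. Ccnd1 in normal nerve replicate 2 stood at 8.85 CPM, with the next at 26 CPM. Normal nerve replicates 2 and 6 account for 4 of these 5 values.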

How the results depend on the processing

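Of the 8 tested genes of the family, Rb1, Rbl1, Rbl2 and Cdk2 kept their direction and stayed uncalled in all 24 alternative fits. E2f5 stayed above 0 in all of them but missed the threshold at a log2 fold change of 0.45 without a filter, 0.31 with the sensory neuron score and 0.35 after removal of the length trend; members called higher were 0 in these 3 fits. With 1 library left out its log2 fold change ran from 0.35 to 0.52 and members called higher from 0 to 1. E2f3 was called lower at -0.27 by limma-voom and -0.28 without the 3 libraries that stood apart, and ran from -0.29 to -0.18 with 1 library left out. E2f6 was called at -0.24 by limma-voom and was uncalled at -0.09 with the sensory neuron score. Members called lower were 2 by limma-voom, 1 without the 3 libraries and 0 to 1 with 1 library left out. E2f4, uncalled throughout, turned to -0.0216 after removal of the length trend, to -0.0093 by limma-voom and to -0.0385 without neurofibroma replicate 2, and ran from -0.0385 to 0.0935 with 1 library left out. Over all genes, calls numbered 1730 higher and 1488 lower, 1364 and 902 without a filter and 2864 and 2701 by limma-voom. With 1 library left out they ran from 1092 to 2544 higher and from 801 to 2487 lower. The causes of these shifts were not tested.

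For the lists, counts stand beside the calls over all genes in each fit, some of which are given above. Those calls numbered 2186 higher and 1952 lower with the glia score, 2226 and 2027 by DESeq2 and 2185 and 2025 without the 3 libraries. They were 1336 and 1526 with the sensory neuron score, 1670 and 1402 with the muscle score and 1472 and 1116 after removal of the length trend. At CPM above 1 they were 1729 and 1535. Dimer partners called lower were 0 without a filter and after removal of the length trend, and 0 to 1 with 1 library left out. Activating E2Fs called lower were 1 by limma-voom, and 0 to 1 with 1 library left out. DREAM genes called lower were 1 by DESeq2, by limma-voom and without the 3 libraries, and those called higher and lower were each 0 to 1 with 1 library left out. E2F6 partners called lower were 0 without a filter, 2 at CPM above 1, after removal of the length trend and without the 3 libraries, 3 by DESeq2 and 4 by limma-voom, and 0 to 2 with 1 library left out. Corepressors called higher were 2 after removal of the length trend and by DESeq2, 3 by limma-voom and without the 3 libraries, and 1 to 3 with 1 library left out; 1 was called lower by DESeq2 and by limma-voom. G1/S targets called higher were 4 with the glia score, by DESeq2 and without the 3 libraries and 6 by limma-voom, and 1 to 5 with 1 library left out; 1 was lower by limma-voom and without the 3 libraries, and 0 to 1 with 1 library left out. G2/M genes called higher were 0 with the sensory neuron score, 2 with the glia score, by DESeq2 and by limma-voom, and 0 to 4 with 1 library left out. RB phosphatase and turnover genes called lower were 1 without a filter, with the neuron score, with the muscle score and after removal of the length trend, and 1 to 2 with 1 library left out. Counts for CDK2 partners, for germ cell genes and for the D-type cyclins with Cdk4 and Cdk6 were the same in all these fits. With the median transcript in place of the longest, levels were 109.9 CPM per kb for Rb1, 1.32 for Rbl1, 50.4 for Rbl2, 1.9 for Cdk2, 12.3 for E2f4, 21.1 for E2f6 and 0.634 for E2f7, so Rb1 and Rbl2 then lay above E2f6. E2f7 and E2f8 have values only without a filter, where their log2 fold changes ran from -0.41 to -0.13 and from 0.31 to 1.16 with 1 library left out. No paired analysis was possible because the labels give the samples no replicate numbers; the numbers used here only name libraries in record order.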
